A study of Homo sapiens with 6 samples.

Results

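The ENO1 and H4K12la peak lists were set against each other: 2 libraries of each target, 4 of the 6 in the series, in which chromatin around a target is cut and tagged by a transposase that an antibody brings there (CUT&Tag). All libraries came from HepG2, an established line of human hepatocellular carcinoma cells, with no treatment named in the labels. ENO1 libraries were made with an antibody to the enzyme enolase 1, H4K12la libraries with an antibody to histone H4 lactylated at lysine 12, and the remaining 2 with an antibody to the histone deacetylase HDAC1. The labels number the replicates 1 and 2 without saying whether each had its own culture, and their spread may therefore be technical. A region counted for a target where peaks of both replicates shared at least 1 bp, on the 24 chromosomes 1 to 22, X and Y, which gave 768 ENO1 regions and 3561 H4K12la regions. ENO1 replicates 1 and 2 held 1592 and 1189 peaks, and H4K12la replicates 1 and 2 held 5459 and 7568. The read depth is unknown, so signal too weak to be called may exist where no peak is listed, and no control library was analysed here.

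Enolase 1 is a glycolytic enzyme that forms phosphoenolpyruvate in the cytosol and is also known for roles outside glycolysis, among them binding of nucleic acids. Lactylation adds a lactate-derived group to lysines, on the histone H4 tail among other places, and histone lactylation is known as a mark of active promoters and enhancers. HDAC1 removes acyl groups from histones within large chromatin complexes. The study addressed histone lactylation governed by ENO1 and HDAC1 and its bearing on transcription.

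Few gene starts carried both targets, and their sequences are shown because they are the only places where an annotated start window lay under both. Of 35116 RefSeq windows (GRCh38.p14, 250 bases before to 50 after a gene start), 3 overlapped a peak of both ENO1 and both H4K12la libraries. They belong to TAF11L3, a member of a family of near-identical TAF11-like genes (chr5:17518117-17518366, plus strand), and to the long noncoding RNA genes FAM27E4 (chr9:61856455-61856704, plus strand) and FAM230E (chr22:18733685-18733934, plus strand). The other 3 sequences carried H4K12la in both replicates and no ENO1 peak, and come first by H4K12la rank. They belong to IFT70A, which acts in intraflagellar transport (chr2:177618743-177618992, minus strand), TBC1D32, which acts in cilia (chr6:121334481-121334730, minus strand), and UFSP2, a protease of the ubiquitin-like modifier UFM1 (chr4:185425965-185426214, minus strand). Each line gives the 250 bases before the start, 5′ to 3′, with CG dinucleotides in capitals.
TAF11L3: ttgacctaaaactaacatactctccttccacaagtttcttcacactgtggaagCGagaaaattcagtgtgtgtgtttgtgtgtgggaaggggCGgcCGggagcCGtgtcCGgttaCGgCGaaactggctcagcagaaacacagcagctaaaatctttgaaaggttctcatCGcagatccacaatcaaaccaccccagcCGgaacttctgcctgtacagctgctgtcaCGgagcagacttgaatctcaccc
FAM27E4: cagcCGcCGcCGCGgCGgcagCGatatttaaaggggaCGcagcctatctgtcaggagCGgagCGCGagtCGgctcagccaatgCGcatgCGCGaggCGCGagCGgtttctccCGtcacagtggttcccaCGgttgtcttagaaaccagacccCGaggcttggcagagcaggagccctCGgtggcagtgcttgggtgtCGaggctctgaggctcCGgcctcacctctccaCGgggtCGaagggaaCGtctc
FAM230E: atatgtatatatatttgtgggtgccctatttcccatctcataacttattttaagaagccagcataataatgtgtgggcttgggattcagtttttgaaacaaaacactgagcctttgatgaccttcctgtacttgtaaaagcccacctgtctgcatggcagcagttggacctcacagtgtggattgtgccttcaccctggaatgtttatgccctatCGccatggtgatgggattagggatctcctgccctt
IFT70A: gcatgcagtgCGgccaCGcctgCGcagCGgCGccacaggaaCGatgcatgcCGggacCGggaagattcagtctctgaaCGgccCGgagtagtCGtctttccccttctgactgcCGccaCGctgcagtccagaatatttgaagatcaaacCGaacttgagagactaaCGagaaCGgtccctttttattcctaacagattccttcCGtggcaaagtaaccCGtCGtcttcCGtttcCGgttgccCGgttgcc
TBC1D32: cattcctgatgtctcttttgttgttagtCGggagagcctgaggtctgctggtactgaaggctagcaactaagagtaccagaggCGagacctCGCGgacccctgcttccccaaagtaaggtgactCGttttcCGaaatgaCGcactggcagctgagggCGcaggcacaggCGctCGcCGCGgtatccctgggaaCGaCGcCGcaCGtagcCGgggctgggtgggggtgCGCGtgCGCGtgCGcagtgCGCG
UFSP2: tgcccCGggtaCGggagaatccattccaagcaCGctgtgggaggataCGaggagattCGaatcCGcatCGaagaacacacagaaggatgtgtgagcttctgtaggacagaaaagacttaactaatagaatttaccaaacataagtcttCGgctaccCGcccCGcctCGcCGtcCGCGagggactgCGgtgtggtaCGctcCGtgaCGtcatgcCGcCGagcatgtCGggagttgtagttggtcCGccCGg

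The 3 starts with both targets differed widely in CG content, and the 3 H4K12la examples held similar numbers of CG dinucleotides. So few starts allow no comparison of the sets. The printed stretches hold 10, 26 and 1 CG dinucleotides at TAF11L3, FAM27E4 and FAM230E, and 22, 24 and 23 at IFT70A, TBC1D32 and UFSP2. At FAM27E4 the fold over background was 9.59 and 9.04 for ENO1 and 6.12 and 5.06 for H4K12la in replicates 1 and 2. FAM230E had 9.47-fold and 7.41-fold of ENO1, against 8.22-fold and 7.16-fold of H4K12la. TAF11L3 had 5.20-fold and 3.43-fold of ENO1, and 3.48-fold and 4.53-fold of H4K12la. Fold is the peak caller's own value within a library and is not scaled between libraries, so only ranks are compared across them. The summits lay 153 to 175 bp after the start at FAM27E4 and 145 to 173 bp before it at FAM230E in the 4 libraries, and between 273 and 626 bp before it at TAF11L3. Over the 2024 windows with H4K12la in both replicates and no reproducible ENO1 peak, the median was 25 CG dinucleotides per window and a GC content of 64.0%, against 14 and 58.7% over all windows. The lower and upper quartiles of the CG count were 19 and 30 in the H4K12la windows, and 4 and 28 over all windows. Of these 2024 windows, 66.9% held GGGCGG, the GC box, on either strand, against 45.0% of all windows. ACTTCCG, an ETS factor motif, was in 18.8% against 6.83%, and the palindromic NRF1 motif in 3.95% against 1.24%. TATAAA, the TATA box, was in 3.21% against 11.5%, and CCAAT in 37.1% against 34.6%. Of the 3 windows with both targets, 1 held GGGCGG, 1 held CCAAT, 1 held the NRF1 motif and 0 held TATAAA or ACTTCCG. All motifs were searched on both strands without mismatch, none is contained in another, and a match describes letters and not a site.

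ENO1 peaks lay mostly far from protein-coding genes and H4K12la peaks mostly inside or near them. Here near means inside or within 50 kb of a protein-coding gene and far means over 50 kb from any. In replicates 1 and 2, 66.5% and 75.9% of ENO1 peaks were far, against 17.5% and 12.9% of H4K12la peaks. Both ENO1 values exceeded both H4K12la values, and the means differed by 56.0 percentage points (71.2% ± 6.71 for ENO1 and 15.2% ± 3.23 for H4K12la, SD, n = 2 each). Within 1 kb of either annotated end of such a gene lay 2.20% and 1.68% of ENO1 peaks, against 41.0% and 43.8% of H4K12la peaks, a difference of -40.5 points. Each difference gave p = 0.333 in a two-sided exact permutation test over libraries. That is the smallest p this test can give with 2 against 2 libraries, so this test cannot pass the usual threshold here. With the 1000 strongest peaks of each library, the differences were 32 points for far peaks and -25.3 points for gene ends.

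Most ENO1 regions coincided with H4K12la, near genes and far from them, whereas H4K12la regions coincided with ENO1 mainly far from genes. Of all ENO1 regions, 56.8% (436 of 768) overlapped an H4K12la region, and 12.4% (440 of 3561) of H4K12la regions overlapped an ENO1 region. Merged, these made 435 shared regions. Among ENO1 regions the share was 59.1% near genes (117 of 198, Wilson 95% interval 52.1 to 65.7) and 56.0% far from them (319 of 570, 51.9 to 59.99), both close to the 56.8% over all. Among H4K12la regions it was 4.01% near genes (119 of 2970, 3.36 to 4.77) and 54.3% far from them (321 of 591, 50.3 to 58.3), on either side of the 12.4% over all. List sizes bound these H4K12la shares: 198 ENO1 regions stood against 2970 H4K12la regions near genes, but 570 against 591 far from them. Near genes, and at gene ends, only a small share of H4K12la regions could therefore coincide with ENO1. At gene ends, 8 of 15 ENO1 regions and 7 of 1686 H4K12la regions (0.415%) were shared. In gene bodies away from the ends the counts were 52 of 91 and 52 of 850, and in the flanks up to 50 kb 57 of 92 and 60 of 434, for ENO1 and H4K12la regions. Intervals cover counting error only, and regions of a library are not independent replicates. Without ENO1 replicate 2, so that peaks of replicate 1 alone counted, the ENO1 shares were 31.1% near and 33.6% far. Without H4K12la replicate 1 the H4K12la share near genes was 2.31%, and with the 1000 strongest peaks of each library it was 28.4%. Among H4K12la regions with no other H4K12la region within 100 kb, a setting chosen after the data were seen, the share far from genes was 32.4%.

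**Figure D1:**
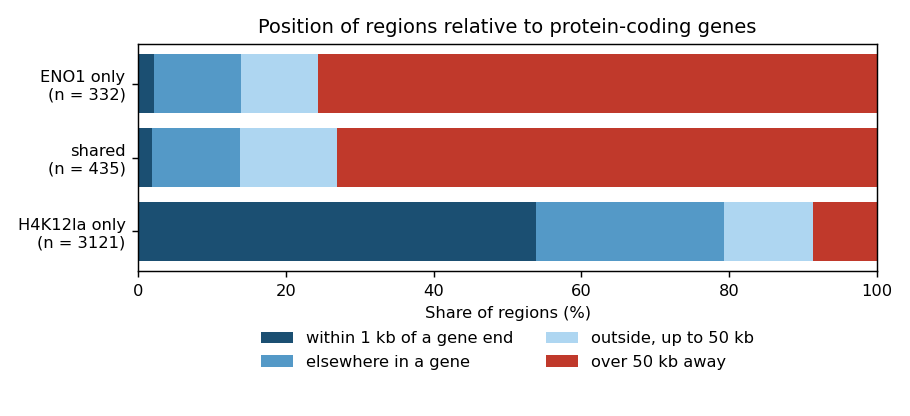
Horizontal bars give the share of regions (%) in each position relative to protein-coding genes, for the 332 ENO1-only, 435 shared and 3121 H4K12la-only regions. Far regions make up 75.6% of ENO1-only and 73.1% of shared regions and 8.65% of H4K12la-only regions.

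Shared regions resembled ENO1-only regions in position. Far regions were 75.6% of the 332 ENO1-only regions, 73.1% of the shared and 8.65% of the 3121 H4K12la-only regions. Gene ends held 2.11%, 1.84% and 53.8% of them in the same order. No gene of any kind, noncoding genes and pseudogenes included, was annotated under 76.2% of ENO1-only regions, 77.0% of shared regions and 14.1% of H4K12la-only regions. Over 50 kb from any annotated gene of any kind lay 59.6%, 51.3% and 1.79%. Within 500 kb inside the start or end of the outermost annotated gene of a chromosome, or beyond it, lay 8.73% of ENO1-only regions, 13.6% of shared regions and 1.73% of H4K12la-only regions, a position looked at after named regions were seen there. Shared regions were also longer than ENO1-only ones, with a median width of 789 bp, 512 bp for ENO1-only and 819 bp for H4K12la-only. HDAC1 regions overlapped 63.6% of ENO1-only regions (211 of 332), 97.9% of shared regions (426 of 435) and 26.1% of H4K12la-only regions (815 of 3121).

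ENO1-only regions often held an H4K12la peak in 1 replicate, whereas few H4K12la-only regions held an ENO1 peak in any. Of the 332 ENO1-only regions, 155 held no H4K12la peak in either replicate, 176 held one in 1 replicate, and 1 held peaks of both that formed no region over it. Of the 3121 H4K12la-only regions, 3011 held no ENO1 peak in either replicate and 109 held one in 1 replicate. So 20.2% of all ENO1 regions, and 84.6% of all H4K12la regions, held no called peak of the other target in either replicate. The lists differ in size, and 768 ENO1 regions could not cover most of the 3561 H4K12la regions.

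Median fold was higher in shared regions than in regions of a single target. Near genes, the median ENO1 fold in shared regions was 7.47 and 6.26 in replicates 1 and 2, against 4.85 and 4.41 in ENO1-only regions. The median H4K12la fold there was 6.06 and 5.88, against 3.96 and 4.19 in H4K12la-only regions. Far from genes, shared regions had 8.10-fold and 7.33-fold of ENO1, against 6.31 and 6.07 in ENO1-only regions, and 7.07-fold and 6.89-fold of H4K12la, against 4.43 and 4.43 in H4K12la-only regions. In each library the shared median was the higher one, near and far. A shared region needed called peaks in all 4 libraries, and its fold was that of the strongest peak over the merged span. How much of the difference follows from this definition was not tested.

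Divided into 4 groups of like size (quartile groups) by mean fold rank of both replicates, ENO1 regions near genes were shared in 34.0% (17 of 50), 38.8% (19 of 49), 77.6% (38 of 49) and 86.0% (43 of 50) of cases, weakest group first. Far from genes the ENO1 shares were 45.5%, 47.2%, 52.1% and 79.0% over groups of 142 or 143 regions. For H4K12la far from genes they were 30.4%, 31.1%, 60.5% and 95.3%, and 141 of the 148 strongest regions coincided with ENO1. Near genes the 3 weaker groups of H4K12la regions were shared in 1.48%, 1.35% and 1.48% of cases and the strongest in 11.7% (87 of 743). Even there, most strong H4K12la regions near genes were without a reproducible ENO1 peak, but only 198 ENO1 regions lay near genes.

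**Figure D2:**
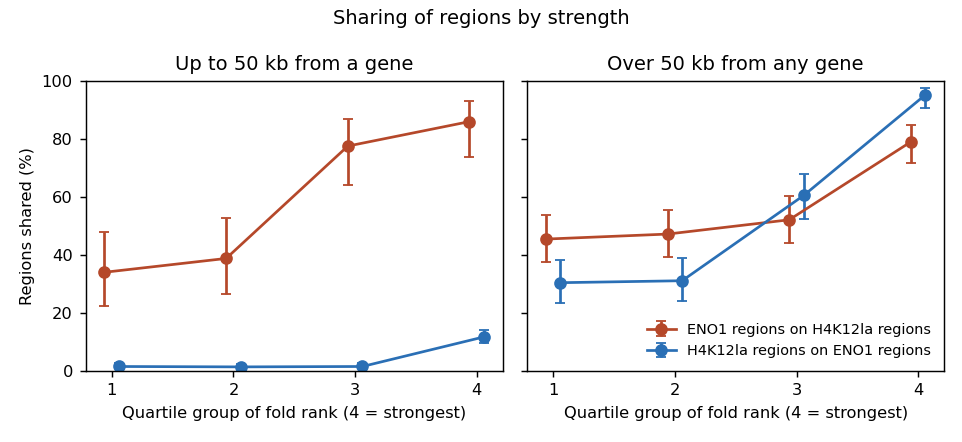
Points give the share of regions (%) that overlap a region of the other target, by quartile group of fold rank from weakest (1) to strongest (4), near genes on the left and far from them on the right, with Wilson 95% intervals. The strongest group far from genes reaches 79.0% for ENO1 and 95.3% for H4K12la, while near genes H4K12la stays at or below 11.7%.

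Summits of both targets coincided about as closely as those of replicates of a single target. Taking the strongest peak of each library in a region, the median distance between an ENO1 and an H4K12la summit was 28 to 34 bp over the 4 library pairs in the 117 shared regions near genes (mean 30.8 bp ± 2.5, SD). Between the ENO1 replicates it was 29 bp and between the H4K12la replicates 35 bp in the same regions. In the 318 far regions it was 22.5 to 25.5 bp between targets (mean 23.6 bp ± 1.44), 21 bp between ENO1 replicates and 22 bp between H4K12la replicates. Summits of both targets lay within 50 bp of each other in 62.4% to 67.5% of near and 67.3% to 71.7% of far regions. The replicates did so in 64.1% (ENO1) and 58.1% (H4K12la) near genes, and in 75.8% and 67.6% far from them. The library pairs share libraries, so their SD is no replicate error, and overlap itself limits how far apart summits can lie. Outside shared regions replicate summits lay further apart near genes, with medians of 100 bp in ENO1-only and 153 bp in H4K12la-only regions. Far from genes these medians were 30 bp for ENO1-only and 125 bp for H4K12la-only regions.

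**Figure D3:**
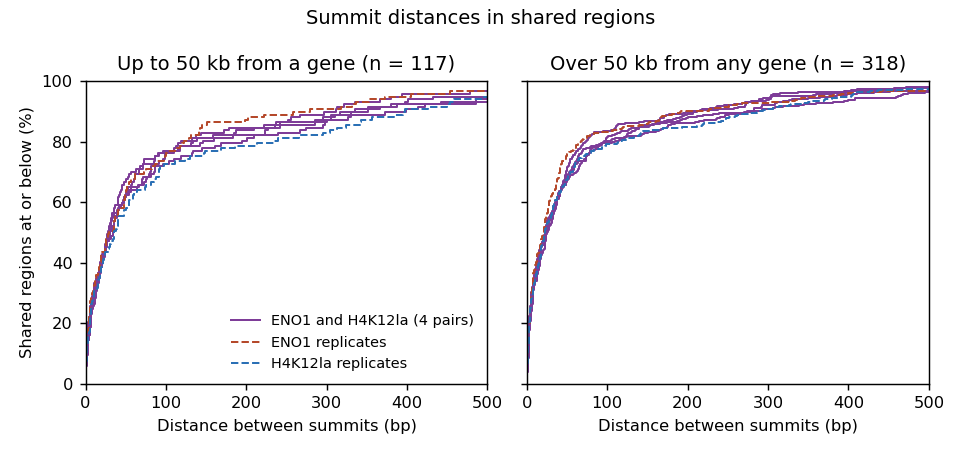
Lines give the cumulative share of shared regions (%) against the distance between summits (bp), near genes on the left and far from them on the right. The 4 solid lines of ENO1 and H4K12la pairs run close to the dashed replicate lines, with medians of 28 to 34 bp near genes and 22.5 to 25.5 bp far from them.

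Fold ranked shared regions nearly alike in both targets. Near genes Spearman's rho of fold between an ENO1 and an H4K12la library was 0.856 to 0.877 over the 4 pairs (mean 0.868, n = 117 regions), against 0.893 between ENO1 replicates and 0.922 between H4K12la replicates. Far from genes it was 0.916 to 0.920 (mean 0.918, n = 318 regions), against 0.931 and 0.939. The values between targets lay below both replicate values in each position. For HDAC1 in the same regions every value exceeded those between ENO1 and H4K12la: its rho with ENO1 libraries was 0.901 to 0.918 near and 0.937 to 0.939 far, and with H4K12la libraries 0.902 to 0.922 near and 0.933 to 0.943 far. These correlations are across regions, which share libraries, cells and mapping, and carry no p. Outside shared regions, rho between replicates was 0.790 near and 0.818 far for ENO1-only regions, and 0.627 near and 0.781 far for H4K12la-only regions.

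**Figure D4:**
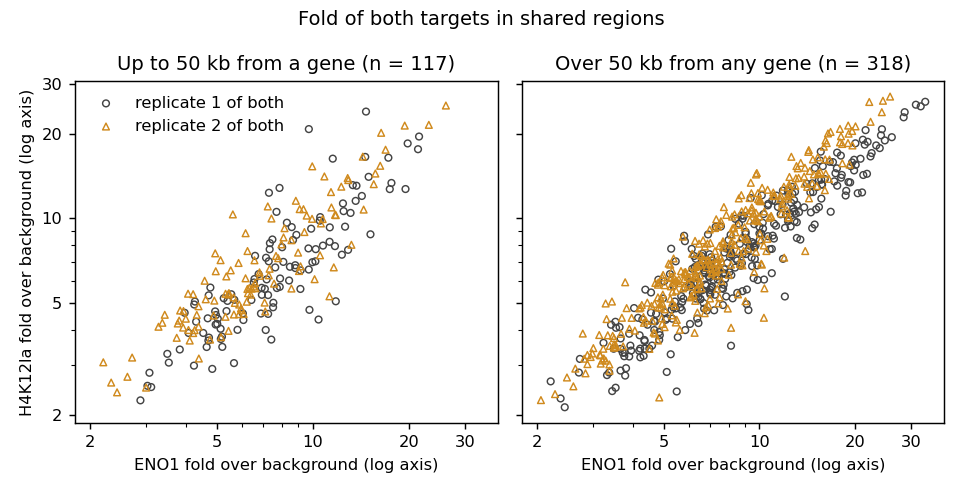
Each point is a shared region, with ENO1 fold on the x axis and H4K12la fold on the y axis (fold over background, log axes), for replicate 1 of both (circles) and replicate 2 of both (triangles). The 117 near regions and the 318 far regions both follow a rising band, with mean rho of 0.868 and 0.918 over 4 library pairs.

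Few shared regions differed in rank between the targets by a wide margin. In 7 of 435, 6 of them far from genes, both ENO1 percentiles exceeded both H4K12la percentiles by over 20 points, and in 1 the reverse held. With no such limit, both ENO1 percentiles were the higher in 81 regions and both H4K12la percentiles in 90. The widest gap was on chromosome 9 (67723229 to 67724528), 134 kb from ANKRD20A1, an ankyrin repeat gene with near-identical copies. That region had 8.14-fold and 8.15-fold of ENO1 (percentiles 53.1 and 60.5), against 3.52-fold and 4.07-fold of H4K12la (9.43 and 13.3). The FAM27E4 start described above was another of the 7. The region with the reverse order lay on chromosome 11 (175344 to 176143), 11.9 kb from SCGB1C1, a secretoglobin gene. It had 7.28-fold and 5.61-fold of ENO1 (percentiles 44.1 and 32.0), against 12.3-fold and 10.3-fold of H4K12la (83.2 and 74.3). The 20-point limit was chosen after the data were seen, and these are descriptions without a test.

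Of the 117 shared regions near genes, 8 lay at gene ends, 52 in gene bodies and 57 in flanks. Among the 10 of best mean rank, only that of TMEM216 lay at a gene end, so their positions were much like those of all 117. RABL2B, a small GTPase gene, had such a region 24.2 kb away (chromosome 22, 50807876 to 50808466), at 21.6-fold and 19.4-fold of ENO1 and 19.5-fold and 21.4-fold of H4K12la, with the 4 summits within 27 bp. FRG2C had one 1.69 kb away (chromosome 3, 75668862 to 75669650), at 19.9-fold and 16.9-fold of ENO1 and 18.4-fold and 17.5-fold of H4K12la, with summits within 2 bp. IL9R, the interleukin 9 receptor gene, had one 16.9 kb away (chromosome X, 156029944 to 156030746), at 21.4-fold and 16.4-fold of ENO1 and 17.6-fold and 20.1-fold of H4K12la. These 3 regions are among the best ranked in the mean over the 4 libraries.

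Inside genes, CLPTM1L held a region (chromosome 5, 1333040 to 1333795) at 19.5-fold and 12.9-fold of ENO1 and 12.7-fold and 13.9-fold of H4K12la, with summits within 3 bp. LRRC27 held one (chromosome 10, 132364334 to 132364911) at 15.0-fold and 15.7-fold of ENO1, and 14.03-fold and 14.4-fold of H4K12la. In the body of ACSL3, which encodes an enzyme that activates fatty acids, ENO1 had 14.7-fold and 26.2-fold and H4K12la 23.9-fold and 25.2-fold, so the ENO1 replicates differed there. Summits of the targets lay apart in that region, at 222866763 and 222866768 for ENO1 and 222866433 in both H4K12la replicates, a span of 335 bp. The ENO1 replicates also differed in fold at TMEM216, a gene of the ciliary transition zone, with 9.72-fold in replicate 1 and 23.1-fold in replicate 2. The 4 summits at TMEM216 spanned 110 bp. SOX8, a transcription factor gene, PGBD2 and WDR97 completed the 10, at 14.4-fold to 17.4-fold of ENO1 and 12.7-fold to 16.6-fold of H4K12la in their flanks.

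Far from genes, the 5 best-ranked shared regions had summits of the 4 libraries within 2 to 18 bp of each other. One on chromosome 17 (26603478 to 26604540), 690 kb from WSB1, had 28.6-fold and 22.1-fold of ENO1 and 23.8-fold and 25.9-fold of H4K12la with summits within 2 bp. On chromosome 21 (10692374 to 10693106) one lay 86.7 kb from TPTE, a phosphatase-like gene with related copies, at 28.4-fold and 22.3-fold of ENO1 and 22.9-fold and 22.0-fold of H4K12la. The others lay nearest to WSB1 at a second place, 1374 kb away, PROS1, 402 kb away, and KCNJ18, 817 kb away. Far describes only the distance to protein-coding genes, and repeats and mappability at these places were not examined.

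Shared regions gathered in runs. Joined wherever the gap was at most 100 kb, the 435 shared regions made 224 runs, and 16 runs of 5 or more regions held 153 of them (35.2%). For ENO1-only regions such runs held 26.2% and for H4K12la-only regions 2.92%. The longest, on chromosome 10 (40019602 to 40981551), held 26 shared regions over 962 kb, with median folds of 12.1 and 10.3 for ENO1 and 11.0 and 11.4 for H4K12la. Chromosome Y (56674580 to 56851162) had 17, chromosome 5 (49465463 to 49667336) had 14 and chromosome 4 (49091449 to 49155089) had 13. In ENO1-only regions the longest run was on chromosome Y (10682473 to 11014812), where 18 regions had median folds of 5.10 and 4.90, and 3 and 5 of them also had a peak in H4K12la replicates 1 and 2. A run of 11 ENO1-only regions on chromosome 8 (85736406 to 85828355) spanned 92.0 kb over genes with LOC names, 3 of which are named among the ENO1 genes. Its median ENO1 folds were 3.17 and 3.44, and 2 and 6 of the 11 regions also had a peak in H4K12la replicates 1 and 2. Repeat annotation was not used here, and its part in these runs was not tested.

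By chromosome, 25% to 85.7% of ENO1 regions were shared, with a median of 53.2%, and 1.48% to 85.0% of H4K12la regions, with a median of 13.0%. Chromosome Y had 69 ENO1 regions, 34 of them shared, and 40 H4K12la regions, 34 of them shared. On chromosome 2, which had the most H4K12la regions, 11 of 26 ENO1 regions and 11 of 422 H4K12la regions were shared. On chromosome 10, 57 of 77 ENO1 regions and 56 of 301 H4K12la regions were shared. Chromosomes 19, 21 and 22, beside Y, had the highest shared part of H4K12la regions, at 32.8%, 32.3% and 29.5%.

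**Figure D5:**
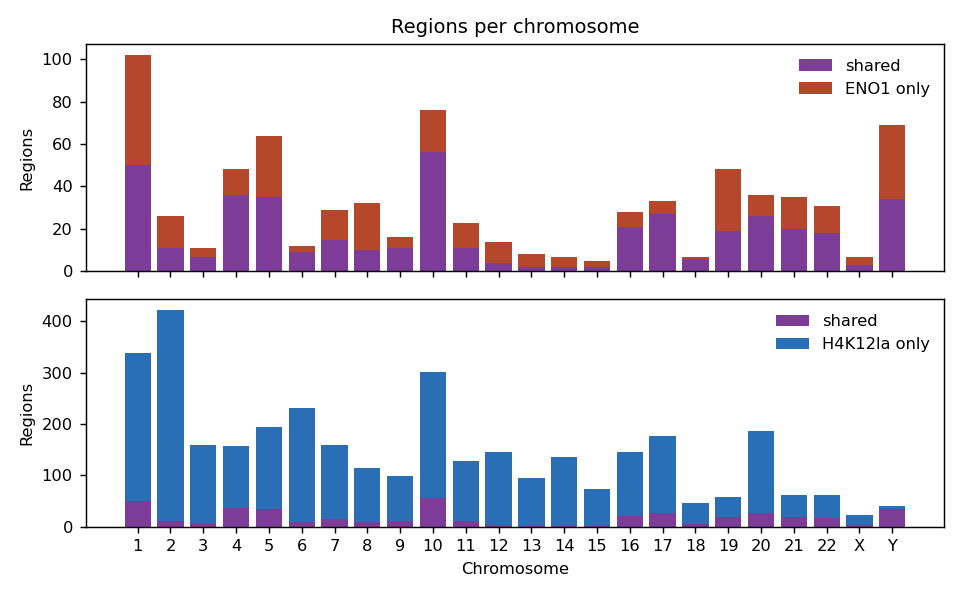
Stacked bars count regions on each chromosome, ENO1 regions above and H4K12la regions below, split into shared regions and regions of that target only. ENO1 regions are most numerous on chromosomes 1, 10 and Y, whereas H4K12la regions are most numerous on chromosomes 2, 1 and 10.

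Few genes carried both targets at a gene end, and few carried ENO1 there at all. A gene-end peak in both replicates was found for ENO1 at 13 of 19866 protein-coding genes (0.0654%), for H4K12la at 2077 (10.5%) and for both targets at 6 (0.0302%). So 6 of the 13 ENO1 genes also carried H4K12la, against 10.5% of all protein-coding genes, a description without a test. That part is no higher than among ENO1 regions in general, of which 56.8% overlapped an H4K12la region, and 8 of 15 at gene ends. The 6 were TMEM216, OR2T1, CCDC200, TAF11L3, NPIPB5 and LOC107987020. OR2T1, an olfactory receptor gene, had 10.2-fold and 8.85-fold of ENO1, against 7.02-fold and 11.5-fold of H4K12la. CCDC200 had 10.5-fold and 8.57-fold of ENO1, against 9.80-fold and 8.35-fold of H4K12la. NPIPB5 and LOC107987020 were weaker, at 4.07-fold to 5.66-fold of ENO1 and 2.91-fold to 4.00-fold of H4K12la. Of the other 7 ENO1 genes, 6 had an H4K12la peak in 1 replicate: WDR81, TAF11L6, TAF11L7, LOC101929601, LOC101929627 and LOC124902048. USP17L11, a deubiquitinase-like gene with near-identical copies, had 5.22-fold and 5.95-fold of ENO1 and no H4K12la peak. Reads may be shared among copies within the TAF11-like, NPIP and USP17-like families, so their values are uncertain. The 3 last-named LOC genes lie together on chromosome 8. The number of genes with both targets was 2 within 500 bp and 13 within 2 kb of gene ends, 12 without ENO1 replicate 2 and 11 without H4K12la replicate 1. It was 3 with the 1000 strongest peaks per library and 51 over 58961 genes of all kinds.

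Among the 2077 H4K12la genes, 2063 had no ENO1 gene-end peak in either replicate and 8 had one in 1 replicate. The best-ranked H4K12la-only regions at gene ends were those of IFT70A (7.63-fold and 7.28-fold), TBC1D32 (7.18-fold and 7.47-fold) and UFSP2 (6.30-fold and 8.01-fold). Next came MMADHC, which acts in cobalamin metabolism, MIGA1, CCDC66, a centrosome and cilium gene, SEC23B and the pair COMMD6 and UCHL3, all between 6.25-fold and 7.50-fold. None of these 8 had an ENO1 peak in either replicate. H4K12la summits within 1 kb of an annotated start had a median position 87 bp and 65 bp after it in replicates 1 and 2, over 2025 and 2969 peaks. ENO1 had 12 and 9 such peaks, with medians 279 bp and 435 bp before the start.

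Among the best-ranked ENO1-only regions near genes was one in OPRL1, the nociceptin receptor gene (chromosome 20, 64088585 to 64088954). It had 13.5-fold and 9.85-fold of ENO1, and H4K12la replicate 2 alone had a peak there, of 9.69-fold. SHISA7 had 8.39-fold and 7.23-fold of ENO1 and no H4K12la peak. A further 5, nearest to BDH1, a ketone body enzyme gene, PIGG, VIPR2, FAM246A and ARHGEF18, had 7.64-fold to 9.85-fold of ENO1 and an H4K12la peak of 4.42-fold to 7.01-fold in replicate 2 only. HDAC1 had a peak in both replicates at each of these regions.

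The listed genes of glycolysis, histone acylation and liver carried H4K12la at gene ends about as often as all genes. None had an ENO1 gene-end peak in either replicate. As such peaks were at 0.0654% of all protein-coding genes in both replicates, a count of 0 in lists of this size says nothing about them. Peaks elsewhere in a gene are not counted here, and the body of GPI held 1 region shared by ENO1 and H4K12la. Of 29 genes of glycolysis and lactate handling, 3 had H4K12la in both replicates (10.3%, close to the 10.5% of all protein-coding genes). They were PFKM, a phosphofructokinase gene (4.66-fold and 4.05-fold), GPI, glucose phosphate isomerase (3.03-fold and 3.35-fold), and SLC16A3, a lactate exporter gene (2.95-fold and 2.60-fold). LDHA, which makes lactate, and PGAM1 had it in 1 replicate. Neither ENO1 nor H4K12la had a gene-end peak at the ENO1 gene or at MYC, the growth-driving transcription factor gene. Of 19 histone lactyl and acetyl enzyme genes, 2 carried H4K12la (10.5%): EP300, an acyltransferase also known to lactylate histones (3.68-fold and 4.34-fold), and HDAC2 (3.54-fold and 4.42-fold). HDAC1, KAT6A, KAT6B and SIRT1 had H4K12la in 1 replicate.

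The liver origin of the cells was looked for in the same way. Of 18 hepatocyte genes, 2 carried H4K12la in both replicates, HNF4A (3.55-fold and 3.34-fold) and FOXA1 (3.31-fold and 2.77-fold), both liver transcription factor genes. None of the secreted liver proteins of the list, such as ALB, had a gene-end peak of either target. Of 10 blood and immune genes and 8 neuron genes, 0 carried either target, and of 8 endothelial and stellate genes 1 carried H4K12la, ACTA2 (4.29-fold and 4.21-fold). The occupied part of the hepatocyte list, 11.1%, was close to the 10.5% over all protein-coding genes, so gene-end peaks did not check the labelled liver origin.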

How the data were processed

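FastQC, Bowtie2, MACS2, deepTools and build hg38 are named, per the submitters' processing notes. Their settings and order, and any control library, were not given in the sources used. The deposited files are narrow peak lists, 1 per library, so peaks were called per sample. Per the file layout, the authors' lists give a fold over background (a ratio within each library), the -log10 of p and q values, and a score of 10 times the -log10 q. Every list starts just above a -log10 q of 2. The fold was used to rank and describe peaks, the -log10 q for a stricter setting.

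Peaks on the 24 chromosomes were joined into regions where replicates shared at least 1 bp. Genes came from RefSeq (GRCh38.p14, the build of the lists); 19866 protein-coding genes remained after entries on other sequences, told by a drop in position, were left out. Gene starts came from the RefSeq promoter table and covered 15842 of these genes (79.7%), none on chromosome 8. Wilson intervals used a 95% level. Library shares were compared by two-sided exact permutation; all else is description. Alternatives covered overlap, q, list length, distance, window, gene set and replicates. Overlap, distance and ranking steps were tested on simulated data.

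Named were all genes with ENO1 in both replicates, the nearest genes of the 10 near and 5 far shared regions, the 8 ENO1-only near regions and the 8 H4K12la-only gene-end regions of best mean rank, occupied list members (up to 4 a list), and ENO1, HDAC1, LDHA and MYC. A region and a list member that these rules name are not reported here. Members and lists were chosen with earlier results of these data known. Python 3.11.15, pandas 2.3.3, scipy 1.17.1 and statsmodels 0.14.6 were used.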

Additional observations from a re-analysis of the deposited data

Results flagged for a closer look

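Peaks outside the 24 chromosomes entered no comparison above, and both targets had peaks there in every library. On unplaced sequences ENO1 replicates 1 and 2 had 219 and 201 peaks and H4K12la replicates 188 and 200. They formed 152 regions of each target, and 117 of the ENO1 regions overlapped an H4K12la region (77.0%), with Spearman's rho of fold between 0.949 and 0.969 over the 4 library pairs. On the mitochondrial genome ENO1 had 7 and 5 peaks and H4K12la 5 and 5. Of the 5 ENO1 regions formed there, 3 overlapped an H4K12la region, and all 4 H4K12la regions overlapped ENO1. No control library was analysed, so no background level can be set beside these counts.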

How the results depend on the processing

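The direction of both library differences held under every alternative run, but with the 1000 strongest peaks per library they shrank to -25.3 points at gene ends and 32 points far from genes. Over leaving out each library in turn, the gene-end difference ranged from -41.9 to -39.0 points and the far difference from 51.3 to 60.8. With the replicate block they were -40.5 and 56.0 (exact sign permutation p = 0.5 for each, the smallest that 2 pairs allow). The labels do not say what replicates of the same number have in common. Differences of replicates 1 and 2 in log2 fold correlated at -0.0401 between the targets across 435 shared regions. With 1 difference per target, this value cannot tell whether same-numbered replicates shared a culture or batch. Leaving out a library also drops the need for both replicates of its target. Shares of ENO1 regions on H4K12la then ranged from 31.1% to 75.3% near and 33.6% to 69.1% far, shares of H4K12la regions on ENO1 from 2.31% to 5.49% near and 39.2% to 58.9% far. Summit distances were 33 to 40 bp near and 25 to 28 bp far, rho 0.842 to 0.880 near and 0.900 to 0.911 far, and genes with both targets 7 to 12.

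At a -log10 q of 5 or more, H4K12la shares were 6.15% near and 64.7% far, summit distances 26.8 bp and 21 bp, and rho 0.879 and 0.928. With the 1000 strongest peaks per library, H4K12la shares were 28.4% near and 80.5% far, the ENO1 share far 50.5%, summit distances 26 bp and 20 bp, rho 0.758 and 0.884, and genes with both targets 3. A far limit of 10 kb gave H4K12la shares of 2.61% near and 42.1% far and rho of 0.911 far; 100 kb gave 5.11%, 62.6% and rho of 0.881 near. With all genes in place of protein-coding ones, H4K12la shares were 6.55% near and 80.1% far, rho 0.882 near and 0.922 far, the far summit distance 21.8 bp, and genes with both targets 51. Gene-end windows of 500 bp and 2 kb gave 2 and 13 genes. Overlap of at least 50% of the shorter interval gave rho of 0.921 far.

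Chosen after the data were seen, regions with no other region of their target within 100 kb gave an ENO1 share of 42.7% far, H4K12la shares of 3.08% near and 32.4% far, summit distances of 40 bp and 33.3 bp, and rho of 0.822 and 0.832. Without chromosome Y the H4K12la share far from genes was 51.8%. In these cases the cause was not tested, apart from what each setting removes. The remaining values on shared regions moved by less than the spread between libraries, and the remaining counts of genes by at most 1.5 times. Peak lists end at the calling threshold, and depth is unknown, so absence of a peak sets no upper limit on signal.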
